A study of Oryza sativa with 30 samples.

Results

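The circadian clock genes of rice described here are 9 genes of 38978 listed for the first set of libraries and of 40718 listed for the second. They were chosen by gene identifier, 1 of them by its name in the deposited table, with earlier results of these data known. No cut on expression was used. They are LHY (Os08g0157600), PRR37 (Os07g0695100), PRR73 (Os03g0284100), PRR95 (Os09g0532400), PRR59 (Os11g0157600), PRR1 (Os02g0618200), GI (Os01g0182600), ELF3 (Os06g0142600) and OsPCL1 (Os01g0971800). All 9 were listed in both sets, and all 9 passed the filter on low values in both. The deposited tables give Os08g0157600 the name CCA1 and give the name LHY to another gene, Os04g0583900, which they describe as REVEILLE 1. Here LHY always means Os08g0157600.

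The plant clock is a set of transcription factors that switch each other off in turn over the day, so that each has its highest RNA level at its own hour. In Arabidopsis, where most of these roles were worked out, LHY is a MYB-type factor of the morning that represses the evening genes. The PRR proteins (pseudo-response regulators) follow one another through the day and repress LHY, and PRR1, the counterpart of Arabidopsis TOC1, closes that series in the evening. GI (GIGANTEA) stabilises the light-sensing F-box protein ZEITLUPE, and ELF3 forms the evening complex with a GARP-type DNA-binding factor, LUX or PCL1, whose rice counterpart is OsPCL1. In rice, PRR37 is the heading-date gene Hd2 and GI acts upstream of Hd1 in day-length control of flowering.

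Leaf RNA was sequenced in 30 libraries from 14-day-old seedlings grown in test tubes at 26 °C with 13 h of light and 11 h of dark. The first set of 20 libraries held untreated controls of the wild type ATM (3), the atm-1 mutant (3), the wild type TOP6A3 (1), the top6a3 mutant (3) and the atr mutant (1). It also held leaves taken 6 h after 70 Gy of gamma rays from a 60Co source (ATM 3, atm-1 3, atr 1) and leaves after 24 h at 4 °C (ATM 1, atm-1 1). The second set of 10 libraries held controls of the wild type DJ (2) and the ku70 mutant (2), and leaves 6 h after 40 Gy from DJ (2), ku70 (2), the TOP6A3 overexpressor TOP6A3-OE1 (1) and TOP6A3-OE1 atm-2, that overexpressor with the atm-2 mutation (1). ATM and ATR are DNA-damage kinases, KU70 binds broken DNA ends, and TOP6A3 is a topoisomerase VI subunit. The labels do not say which lesion each mutant carries, what drives the overexpression, or whether replicates were separate plants. No label gives the hour of day at harvest. For genes with a daily rhythm, any treatment or line and the hour of sampling therefore cannot be told apart, and neither can fewer cells of a type and less RNA per cell in whole leaves.

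LHY lies on chromosome 8 from 3360865 to 3373395 on the plus strand, PRR1 on chromosome 2 from 24569489 to 24572391 (plus), and PRR37 on chromosome 7 from 29616705 to 29629215 (plus). PRR73 lies on chromosome 3 from 9759666 to 9768689 (minus), PRR95 on chromosome 9 from 20885173 to 20889792 (minus), and PRR59 on chromosome 11 from 2789002 to 2793728 (plus). GI lies on chromosome 1 from 4329362 to 4338486 (minus), ELF3 on chromosome 6 from 2234581 to 2239058 (minus), and OsPCL1 on chromosome 1 from 42874273 to 42875515 (minus). These whole-gene coordinates are the deposited tables' own, for the first set, and the genome build is not given in the sources used here. PRR37 shares its span with Os07g0695200 on the opposite strand in the first set's annotation, and PRR73 shares its span with Os03g0284150 on the opposite strand and Os03g0284200 on the same strand. Those 3 genes reached at most 0.733, 0 and 1.25 FPKM in the first set, so few reads were assigned to them. How the authors treated strand and overlap when counting is not given in the sources used here.

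Values are FPKM, fragments scaled to transcript length and to the size of the library, so levels can be compared between genes within a library. The reads recovered from the FPKM values summed to 10364400 to 16477100 per library. Leaf mesophyll markers (3 Rubisco small subunits, 2 chlorophyll a/b-binding proteins and Rubisco activase) were all above 0 in every library, with sums of 1401 FPKM (atr, 70 Gy) to 46632 FPKM (a ku70 control). Markers of other tissues were far lower, with root markers summing to at most 121 FPKM and secondary-wall cellulose synthases to at most 22.5 FPKM in any library. The targeted genes checked the labels only in part. The library labelled TOP6A3 held 1899 FPKM of TOP6A3, against 2.21 to 10.3 FPKM in the other libraries of its set, whereas the library labelled TOP6A3-OE1 held 4.49 FPKM. Controls labelled ku70 held 24.7 and 37.8 FPKM of KU70, whereas those of DJ held 5.31 and 0.319 FPKM. ATM was at 0.850, 4.54 and 5.23 FPKM in atm-1 controls against 4.12 to 6.19 FPKM in ATM controls, and ATR was at 0.206 FPKM in the atr control. Directions below that rest on TOP6A3, top6a3, TOP6A3-OE1 or ku70 are directions between libraries so labelled.

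A pair of libraries stood apart from the other libraries of their groups in a measure over all genes. Of the genes detected, those with 10 reads or fewer made up 1.53% in the first atm-1 control and 1.70% in the third ATM library at 70 Gy, against 10.8% to 21.8% in the other 18 libraries of the set. The clock genes also stood apart there. In atm-1 control replicate 1, LHY was at 153 FPKM against 9.52 and 12.2 FPKM in the other replicates, 14.1 times their mean, and OsPCL1 was at 25.6 FPKM against 103 and 127 FPKM. In ATM 70 Gy replicate 3, LHY was at 58.6 FPKM against 5.94 and 12.1 FPKM, and OsPCL1 was at 5.94 FPKM against 137 and 168 FPKM. All 9 clock genes lay outside the range of their group in the first of these libraries, and 8 of 9 (PRR73 excepted) did so in the second. Where a printed difference for a clock gene uses them, its value without both is given too. In the second set the same share ran from 1.22% to 8.30%, except for 20.8% in TOP6A3-OE1 atm-2.

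**Figure D1:**
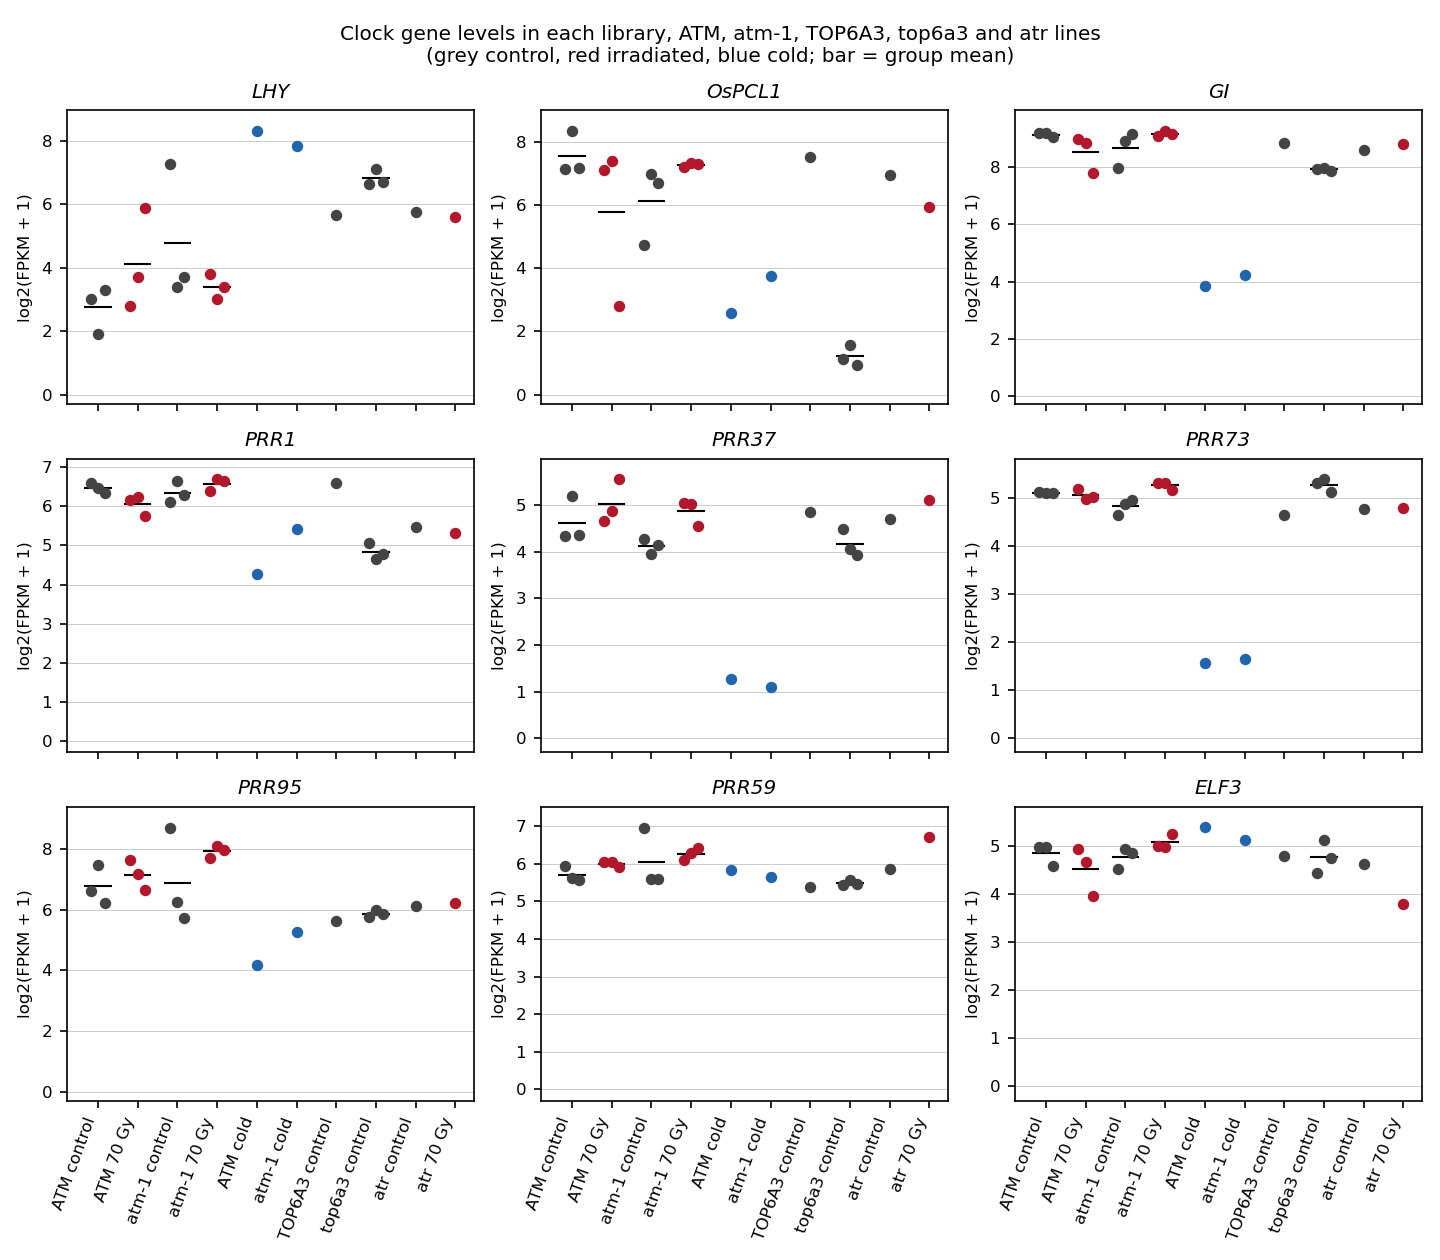
Level of each clock gene, as log2(FPKM + 1), in the 20 libraries of the first set by group, 1 point per library, with a bar at the mean of groups of more than 1. The cold libraries (blue) stand far below the controls for GI, PRR37 and PRR73 and above them for LHY, and the top6a3 controls stand lowest for OsPCL1.

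The clock genes held different ranks in the sets. In the first set GI was the most abundant by its median (464 FPKM), followed by OsPCL1 (125), PRR95 (75.0), PRR1 (73.0), PRR59 (56.9), PRR73 (32.2), LHY (30.1), ELF3 (29.0) and PRR37 (21.8 FPKM). In the second set LHY led with a median of 309 FPKM, followed by GI (112), PRR37 (97.8), PRR73 (59.3), PRR95 (28.7), PRR59 (14.4), ELF3 (13.5), PRR1 (7.16) and OsPCL1 (0.806 FPKM). The morning gene thus stood first in the second set and seventh in the first, and OsPCL1 went from second to last. The sets have separate deposited tables and gene annotations and may have been normalised apart, so this contrast of levels was not tested. By the ratio of highest to lowest value, OsPCL1 had the widest range within the first set, 0.926 to 320 FPKM, ahead of LHY (2.78 to 314 FPKM). By the same ratio PRR59 (40.5 to 123 FPKM) and ELF3 (12.8 to 41.0 FPKM) had the narrowest.

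The balance of LHY and the evening gene PRR1 differed widely between libraries. The ratio of LHY to PRR1 was 0.0319 to 0.110 in the 3 ATM controls, 0.0686 to 0.155 in the 3 atm-1 70 Gy libraries and 0.0965 and 0.158 in atm-1 control replicates 2 and 3. The pair that stood apart gave 2.25 (atm-1 control) and 1.101 (ATM 70 Gy). It was 0.526 in the TOP6A3 library, 1.23 and 1.21 in the atr control and atr 70 Gy libraries, 3.06 to 5.70 in top6a3 and 17.3 and 5.41 in the ATM and atm-1 cold libraries. In the second set it ran from 19.96 to 230. LHY therefore exceeded PRR1 in every library of the second set and in 9 of 20 libraries of the first. A ratio within a library does not depend on its scaling, but it shows only that the genes differ, not which of them moved. Across the 20 libraries of the first set, Spearman's rho of LHY was -0.88 with GI, -0.77 with PRR1 and -0.75 with OsPCL1, and the rho of GI with PRR1 was 0.84. Across the 10 of the second set, the rho of LHY was 0.94 with PRR73 and 0.82 with PRR37, but 0.61 with GI, -0.09 with PRR1 and -0.14 with OsPCL1. These are descriptions over libraries that share groups, with no test.

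**Figure D2:**
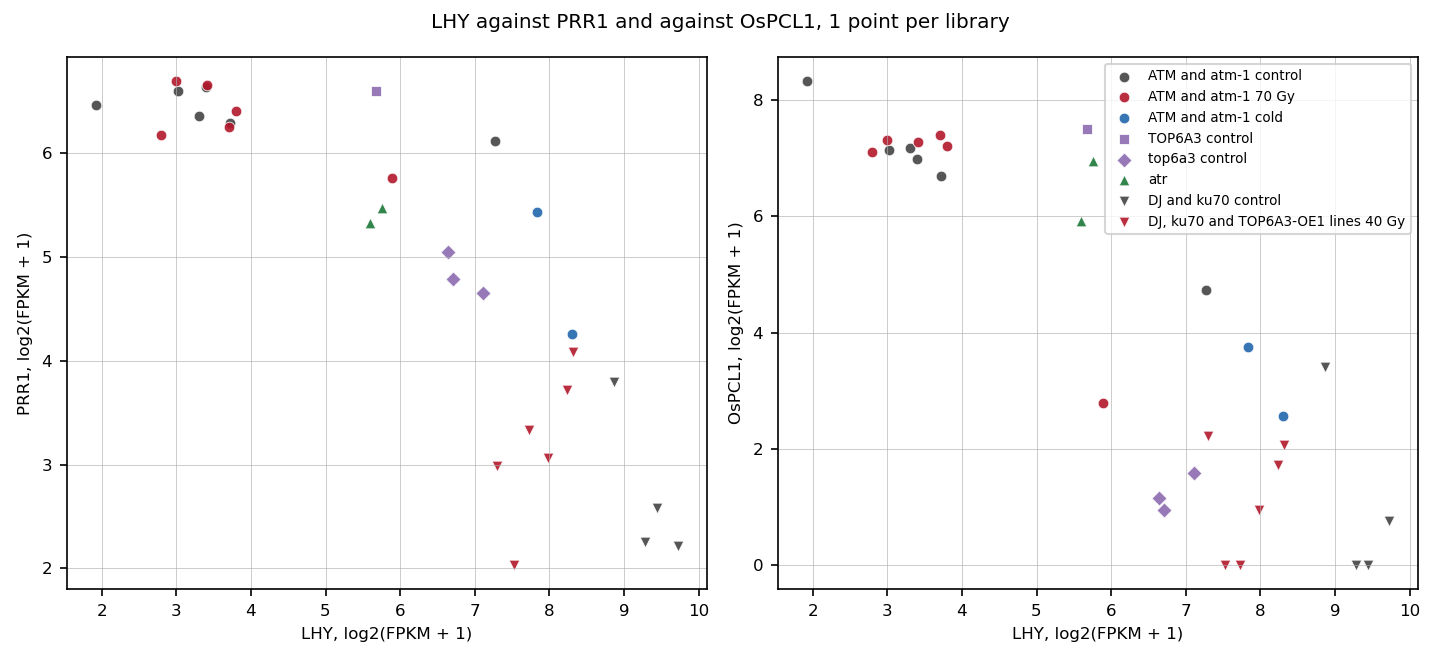
Level of LHY (horizontal) against PRR1 (left) and OsPCL1 (right), both as log2(FPKM + 1), with 1 point for each of the 30 libraries. The ATM and atm-1 control and 70 Gy libraries lie at low LHY and high PRR1, apart from 1 control and 1 irradiated library with more LHY, and the DJ and ku70 libraries lie at high LHY and low PRR1.

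More clock genes were called between cold and control libraries than in any other comparison tested: 1 of 9 rose and 6 of 9 fell. After 24 h at 4 °C the morning gene LHY rose, the day-phase genes PRR37, PRR73 and PRR95 fell, and so did the evening genes PRR1, GI and OsPCL1, whereas PRR59 and ELF3 did not pass the test. Over all 24582 genes tested in this comparison, 28.4% were called at an adjusted p under 0.05 (15.6% higher, 12.9% lower). That share of all genes was also the largest of any comparison tested. The test was limma on log2(FPKM + 1) with 1 cold library each of ATM and atm-1 against 3 controls each, averaged over both lines, and with a spread estimated from all 20 libraries. Each cold group is a single library, assumed to vary like the replicated groups, and the cold and 70 Gy comparisons share their controls. The atm-1 controls include 1 of the libraries that stood apart. Whether the cold response differs between the lines was not tested. Taken by line, a reading chosen after the data were seen, 6 clock genes passed in ATM alone, where PRR95 missed the threshold (adjusted p = 0.0622). In atm-1 alone 4 passed, namely PRR1, PRR37, PRR73 and GI, and LHY, PRR95 and OsPCL1 did not (adjusted p = 0.151, 0.237 and 0.296).

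LHY stood at 314 FPKM in the ATM cold library and 228 FPKM in the atm-1 cold library. Its controls were at 7.11, 2.78 and 8.90 FPKM (ATM) and at 153, 9.52 and 12.2 FPKM (atm-1). Both cold libraries lay above all 6 controls, the nearest being the atm-1 replicate that stood apart. The log2 difference was 4.30 (SE 0.94, adjusted p = 0.00465), and it was 4.92 (adjusted p = 3.99e-06) without the 2 libraries that stood apart.

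GI, the most abundant clock gene of the controls, was at 13.2 and 17.8 FPKM in the ATM and atm-1 cold libraries. Its controls were at 587, 584 and 529 FPKM (ATM) and 249, 485 and 576 FPKM (atm-1). The groups did not overlap, and the mean of the controls was 32.3 times that of the cold libraries. The log2 difference of -4.88 (SE 0.34, adjusted p = 7.4e-07) was the largest among the 9 genes. PRR1 was at 18.1 and 42.1 FPKM in cold and at 68.1 to 98.6 FPKM in the 6 controls, with a log2 difference of -1.56 (SE 0.19, adjusted p = 7.9e-05). OsPCL1 was at 4.94 and 12.4 FPKM in cold. Its controls were at 140, 320 and 144 FPKM (ATM) and 25.6, 127 and 103 FPKM (atm-1). Both cold libraries again lay below every control. Its log2 difference of -3.68 (SE 0.98) had an adjusted p of 0.0142, which became 0.183 when limma-voom was run on the recovered reads, so this call rests on the method.

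The day-phase regulators PRR37 and PRR73, of the branch of Arabidopsis PRR3 and PRR7, had the lowest values of the first set in the cold libraries. PRR37 was at 1.42 and 1.16 FPKM against 19.0, 35.5 and 19.4 FPKM (ATM controls) and 18.3, 14.4 and 16.7 FPKM (atm-1 controls). PRR73 was at 1.95 and 2.14 FPKM against 33.8, 33.2 and 33.2 FPKM (ATM) and 24.1, 28.4 and 30.2 FPKM (atm-1). For both genes the groups lay far apart, with controls 15.9 and 14.9 times the cold mean. The log2 differences were -3.18 (SE 0.29, adjusted p = 8.7e-06) for PRR37 and -3.36 (SE 0.14, adjusted p = 4.2e-09) for PRR73. PRR95, of the branch of Arabidopsis PRR5 and PRR9, was at 17.2 and 37.3 FPKM in cold against 97.4, 179 and 73.8 FPKM (ATM) and 417, 76.1 and 52.1 FPKM (atm-1). Its log2 difference was -2.12 (SE 0.60, adjusted p = 0.0200). It missed the threshold when only the cold and control libraries were fitted (adjusted p = 0.134), and it was -1.67 (adjusted p = 0.00103) without the 2 libraries that stood apart.

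The remaining members did not pass. PRR59, of the same branch as PRR95, was at 56.2 and 48.9 FPKM in cold, inside the 46.3 to 123 FPKM of the controls, with a log2 difference of -0.14 (95% interval -0.78 to 0.50). ELF3 was at 41.0 and 34.1 FPKM in cold, above the 22.1 to 30.7 FPKM of the controls, with a log2 difference of 0.45 (95% interval -0.11 to 1.00, adjusted p = 0.227). Without the 2 libraries that stood apart, the same 7 genes were called. The log2 differences of GI, PRR1, OsPCL1, PRR37 and PRR73 were then -5.06, -1.62, -4.04, -3.14 and -3.41, that of ELF3 was 0.38, and that of PRR59, which is not called either way, was 0.09. The groups did not overlap for 8 of 9 clock genes, all but PRR59, against 33% of all genes tested. In the cold libraries the summed mesophyll markers were at 5940 and 10120 FPKM, against 7409 to 15731 FPKM in the 6 controls, and the part of leaf composition in these values was not tested.

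**Figure D3:**
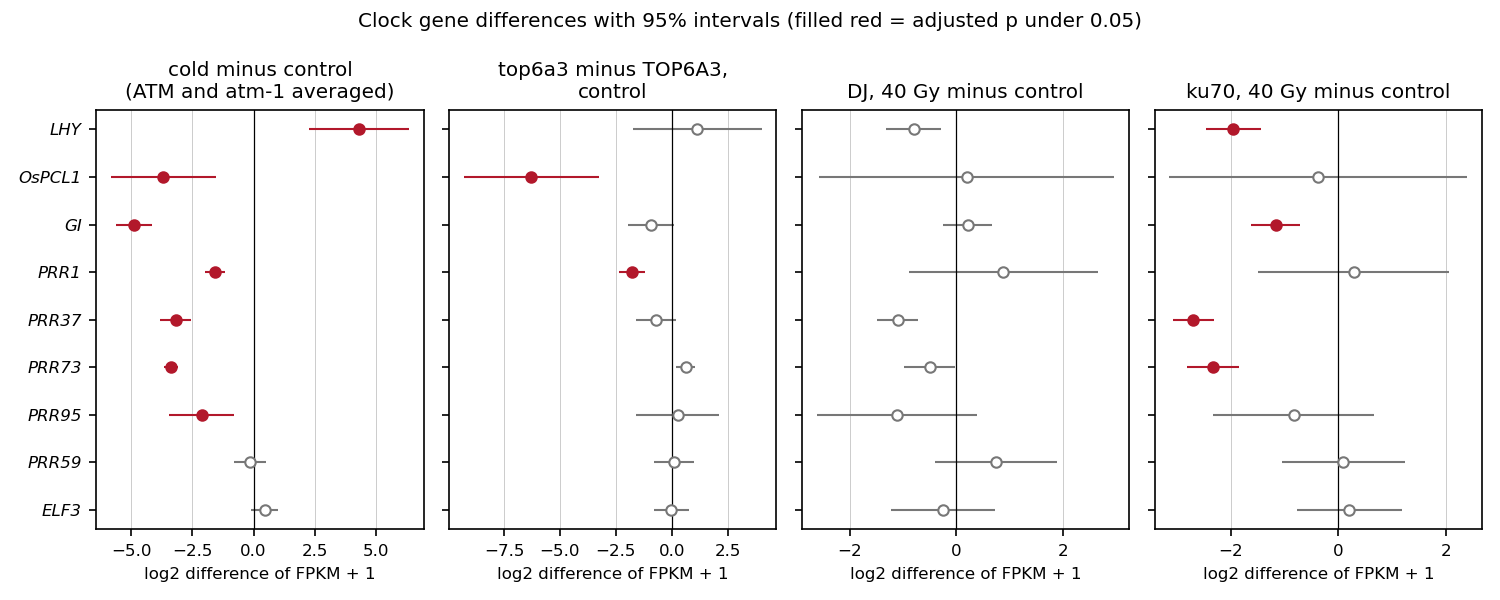
Difference of each clock gene, as log2 of FPKM + 1, with its 95% interval in 4 comparisons, where filled red points passed an adjusted p of 0.05. In cold 7 of 9 genes passed, in the top6a3 comparison 2, in DJ at 40 Gy 0 and in ku70 at 40 Gy 4.

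The other genes of the pathway were read from lists of 22 clock-associated, 13 flowering and 13 light-signalling genes. Of the 21 clock-associated genes tested in cold, 9 rose and 5 fell, against 28.4% of all genes called, with a median log2 difference of 0.59 against -0.01 over all genes. The largest changes were in MYB factors of LHY's family, described in the tables as REVEILLE genes. REVEILLE 1 (Os04g0583900) was at 392 and 677 FPKM in the ATM and atm-1 cold libraries and at 25.9 to 74.8 FPKM in the 6 controls, with a log2 difference of 3.44 (adjusted p = 2.9e-05). REVEILLE 2 (Os04g0584002), which overlaps it on the opposite strand, was at 13.7 and 23.4 FPKM against 0 to 1.09 FPKM (log2 difference 3.80, adjusted p = 9.3e-07), and reads of this overlapping pair may not be separable. REVEILLE 1 (Os02g0685200) was at 189 and 225 FPKM against 3.96 to 14.8 FPKM in 5 controls and 123 FPKM in atm-1 control replicate 1 (log2 difference 3.78, adjusted p = 0.00304). It also overlaps a listed gene on the opposite strand, Os02g0685350. The list counts overlapping genes as separate members, and Os04g0583900 and Os04g0584002 are both among the 9 that rose.

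Of the 8 flowering genes tested in cold, 3 rose and 2 fell, with a median of 0.43. RDD1, a Dof-type transcription factor, was at 40.6 and 78.0 FPKM in cold and at 0.671 to 7.89 FPKM in controls (log2 difference 4.29, adjusted p = 5.3e-05). The log2 differences of DTH8, a CCAAT-box-binding heading-date factor, and of RDD4, another Dof factor, were -1.68 (adjusted p = 0.00591) and 1.17 (adjusted p = 0.0408). Of the 13 light-signalling genes, 3 rose and 0 fell, with a median of 0.43, a smaller share than the 28.4% of all genes called in cold. All 3 were the blue-light receptors of the phototropin family: PHOT1A (log2 difference 1.55, adjusted p = 0.00871), PHOT1B (1.44, adjusted p = 0.0492) and PHOT2 (0.77, adjusted p = 0.0281). PHOT1A and PHOT1B are close copies between which reads may have been split, and PHOT2 overlaps Os04g0304250 on the opposite strand, which reached 179 FPKM.

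**Figure D4:**
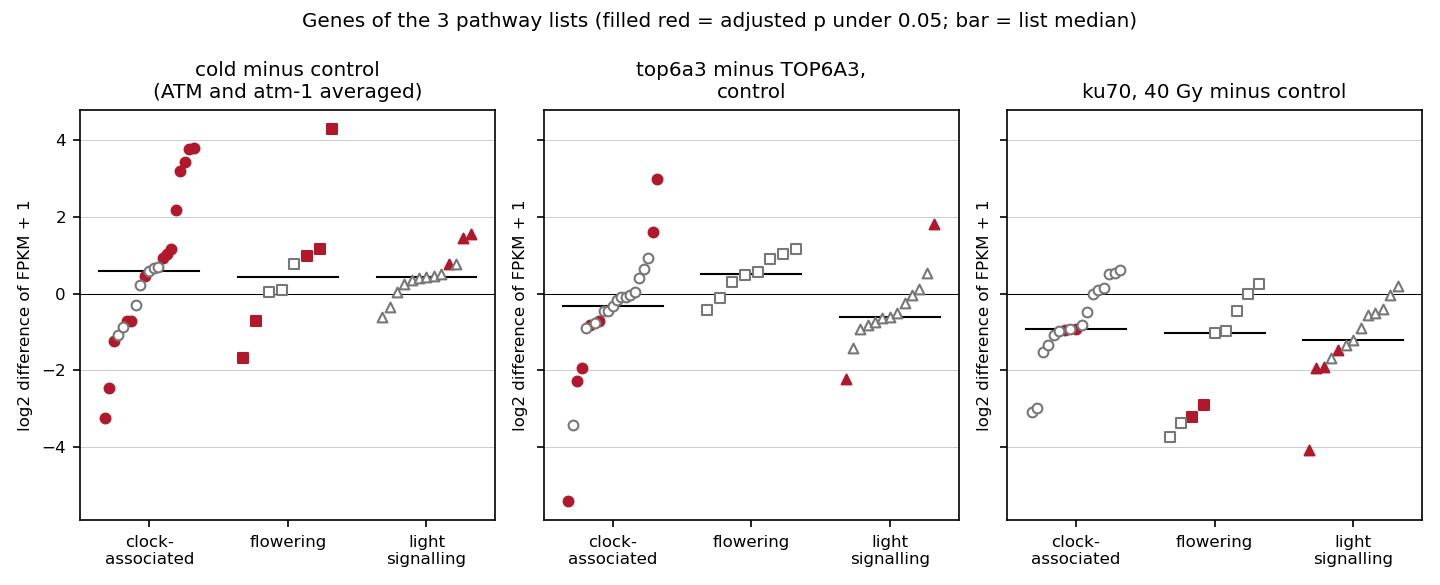
Differences of the clock-associated, flowering and light-signalling genes, as log2 of FPKM + 1, in cold, in top6a3 and in ku70 at 40 Gy, sorted within each list, with filled red points past an adjusted p of 0.05 and a bar at the list median. In cold 9 clock-associated genes passed upward and 5 downward, and in ku70 at 40 Gy the 8 genes that passed were all lower.

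Between the 3 libraries labelled top6a3 and the 1 labelled TOP6A3, both untreated, the evening genes OsPCL1 and PRR1 fell and 0 of 9 clock genes rose. Over all genes 12.9% were called (8.18% higher, 4.7% lower). With 1 library in an arm, the groups did not overlap for 77.9% of all genes and for 8 of 9 clock genes, all but ELF3. OsPCL1 was at 181 FPKM in the TOP6A3 library and at 1.21, 1.99 and 0.926 FPKM in top6a3, the lowest OsPCL1 values of the first set. The log2 difference was -6.28 (SE 1.39, adjusted p = 0.0102), and it was not called by limma-voom on recovered reads (-7.08, adjusted p = 0.138). PRR1 was at 95.4 FPKM in the TOP6A3 library and at 32.1, 24.1 and 26.7 FPKM in top6a3 (log2 difference -1.76, SE 0.27, adjusted p = 0.000730). The ATM controls held 80.9 to 95.9 FPKM of PRR1, the atm-1 controls 68.1 to 98.6 FPKM and the atr control 43.2 FPKM. These levels are set beside the others with no test.

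The other 7 clock genes did not pass in top6a3. GI was at 464 FPKM in the TOP6A3 library and at 246, 252 and 235 FPKM in top6a3, with a log2 difference of -0.92 (SE 0.48, adjusted p = 0.235). LHY was at 50.2 FPKM against 98.4, 137 and 103 FPKM (log2 difference 1.14, SE 1.32, adjusted p = 0.634), and PRR73 at 24.1 FPKM against 38.5, 40.9 and 33.9 FPKM (0.62, SE 0.19, adjusted p = 0.0541). For each of these genes the single TOP6A3 library lay outside the top6a3 range. The spread used in the test was shared over all 20 libraries, the pair that stood apart included. Without both, 4 of 9 were called, GI (adjusted p = 0.00356) lower and PRR73 (adjusted p = 0.00983) higher in top6a3 joining PRR1 and OsPCL1. With only these groups fitted, LHY (adjusted p = 0.0243) higher and GI (adjusted p = 0.0398) lower joined them instead. PRR73 also passed with no filter (adjusted p = 0.0224), with median-ratio scaling (adjusted p = 0.0462) and without top6a3 replicate 3 (adjusted p = 0.0470). PRR37 was at 27.7 FPKM against 21.2, 15.7 and 14.3 FPKM, PRR95 at 48.1 against 53.6 to 62.3 FPKM, and PRR59 at 40.5 against 41.9 to 46.2 FPKM. ELF3, at 26.9 FPKM in the TOP6A3 library, lay within the 20.8 to 34.0 FPKM of top6a3.

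Of the 21 clock-associated genes tested, 2 rose and 5 fell in top6a3, against 12.9% of all genes called, with a median log2 difference of -0.33 against 0.06 over all genes. REVEILLE 1 (Os04g0583900) was at 108 FPKM in the TOP6A3 library and at 0.716, 3.24 and 1.27 FPKM in top6a3 (log2 difference -5.42, adjusted p = 1.4e-05). LNK1 (Os03g0387900), described as a night light-inducible and clock-regulated protein, was at 20.9 FPKM and at 153, 201 and 168 FPKM in top6a3 (2.99, adjusted p = 0.0143). The TOP6A3 library's value was the lowest for LNK1 in the first set, where the median was 86.0 FPKM. FKF1, an F-box blue-light receptor related to ZEITLUPE, was at 15.3 FPKM and at 2.17 to 2.57 FPKM in top6a3 (-2.27, adjusted p = 0.0370). Of the 8 flowering genes, 0 passed, and their median was 0.52. Of the 13 light-signalling genes, CRY2, a cryptochrome, rose (1.81, adjusted p = 0.00472) and bZIP1 fell (-2.22, adjusted p = 0.0256), with a list median of -0.60. The summed mesophyll markers were at 9103 FPKM in the TOP6A3 library and 13774 to 18728 FPKM in top6a3, and the secondary-wall markers at 2.88 FPKM and 11.7 to 22.5 FPKM, and their part in these differences was not tested.

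In the second set, the question was the response to 40 Gy in the wild type DJ and in the ku70 mutant. In ku70, 4 of 9 clock genes fell, LHY, PRR37, PRR73 and GI, and 0 rose. Over all 23063 genes tested, 9.92% were called (2.84% higher, 7.08% lower) and the median log2 difference was -0.29. The differences below are given as computed, with that shift not subtracted. The ku70 libraries at 40 Gy had 15067 and 15005 genes detected, the fewest of the series, against 21755 and 20191 in ku70 controls. Their correlation over all genes (Pearson's r of log2(FPKM + 1), 0.829) was the lowest of any replicate pair. Whether this bears on the clock gene values was not tested. In DJ, 0 of 9 were called, against 1.03% of all genes, with PRR37 close to the threshold. At an unadjusted p under 0.05, 3 of 9 clock genes passed in DJ (LHY, PRR37 and PRR73, all lower), against 13.1% of all genes.

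LHY was at 840 and 694 FPKM in ku70 controls and at 211 and 183 FPKM in ku70 at 40 Gy. In DJ it was at 467 and 621 FPKM in controls and at 319 and 300 FPKM at 40 Gy. In both lines the irradiated libraries lay below the controls without overlap. The groups did not overlap for 5 of 9 clock genes in ku70 (LHY, PRR37, PRR73, PRR95 and GI) against 51.5% of all genes, and for 5 of 9 in DJ (PRR59 in place of GI) against 38.3%. The log2 difference was -1.95 (SE 0.20, adjusted p = 0.00956) in ku70 and -0.80 (SE 0.20, adjusted p = 0.191) in DJ. Without ku70 control replicate 1 or replicate 2 the ku70 call was lost (adjusted p = 0.0622 and 0.0509).

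PRR37 was at 165 and 189 FPKM in ku70 controls and at 27.3 and 25.3 FPKM in ku70 at 40 Gy. In DJ it was at 130 and 136 FPKM in controls and at 57.5 and 65.7 FPKM at 40 Gy. The control level was 6.74 times the irradiated level in ku70 and 2.16 times in DJ, with no overlap in either. The log2 difference was -2.70 (SE 0.15, adjusted p = 0.00396) in ku70 and -1.10 (SE 0.15, adjusted p = 0.0517) in DJ. The DJ value passed the threshold with a pseudocount of 0.1 (adjusted p = 0.0348) or with no filter (adjusted p = 0.0402), and the authors' deposited table gives PRR37 a log2 fold change of -1.03 with an adjusted p of 0.0247.

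PRR73 was at 132 and 104 FPKM in ku70 controls and at 20.7 and 24.3 FPKM in ku70 at 40 Gy, against 86.9 and 81.7 FPKM and then 63.3 and 55.3 FPKM in DJ. The log2 difference was -2.33 (SE 0.19, adjusted p = 0.00631) in ku70 and -0.50 (SE 0.19, adjusted p = 0.364) in DJ. GI was at 150 and 145 FPKM in ku70 controls and at 64.1 and 66.2 FPKM at 40 Gy, a log2 difference of -1.17 (SE 0.18, adjusted p = 0.0237). The GI call was lost when any of the 4 ku70 libraries was left out (adjusted p from 0.0580 to 0.125). In DJ, GI was at 116 and 99.0 FPKM in controls and at 143 and 108 FPKM at 40 Gy, which overlap.

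**Figure D5:**
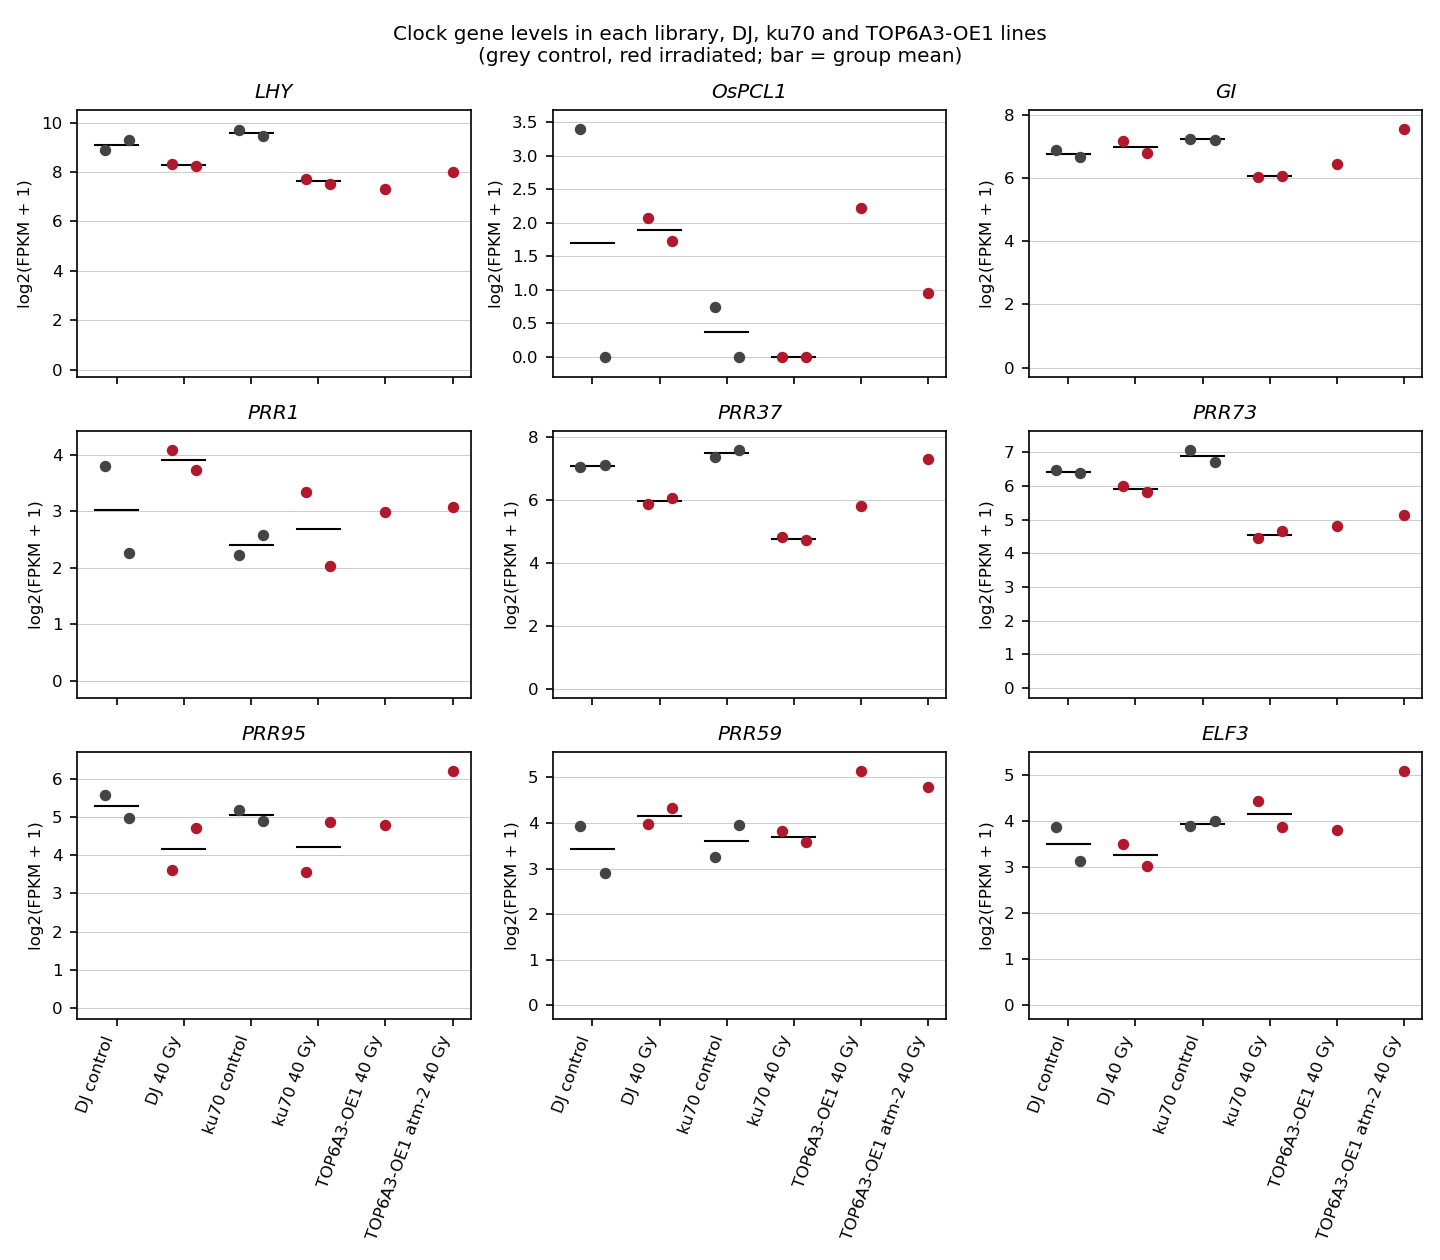
Level of each clock gene, as log2(FPKM + 1), in the 10 libraries of the second set by group, 1 point per library, with a bar at the mean of groups of 2. The ku70 libraries at 40 Gy lie well below the ku70 controls for LHY, PRR37, PRR73 and GI, and OsPCL1 is at or near 0 in most libraries.

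The difference between the lines' responses was itself tested. PRR37 was the only clock gene called, with the ku70 response lower than the DJ response by a log2 difference of -1.60 (SE 0.21, adjusted p = 0.0477), against 1.15% of all genes called (0.763% lower). The call was lost when any of the 8 libraries was left out (adjusted p from 0.0599 to 0.120) and when only the 4 groups were fitted (adjusted p = 0.123). For PRR73 the same difference was -1.83 (adjusted p = 0.0572), for GI -1.38 (adjusted p = 0.0878) and for LHY -1.16 (adjusted p = 0.156). Of these PRR73 passed with a pseudocount of 0.1 (adjusted p = 0.0321) and by limma-voom (adjusted p = 0.0340), and GI passed by limma-voom (-1.41, adjusted p = 0.0458).

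Within 40 Gy, ku70 held less PRR37 (log2 difference -1.20, adjusted p = 0.0321) and less PRR73 (-1.36, adjusted p = 0.0398) than DJ, 2 of 9 clock genes lower against 1.89% of all genes lower and 2.75% called. Both calls were lost when any of the 4 libraries was left out and when only these groups were fitted (adjusted p = 0.162 and 0.148). GI did not pass (-0.92, adjusted p = 0.0769) but was called lower by limma-voom (-0.95, adjusted p = 0.0260). The groups did not overlap for 8 of 9 clock genes, all but PRR95, against 37% of all genes. Over all genes the median log2 difference was -0.14 here and -0.27 in the test of the difference between responses. Between the untreated controls of ku70 and DJ, 0 of 9 were called, against 0.62% of all genes, and the groups did not overlap for 5 of 9 (LHY, PRR37, PRR73, GI and ELF3), against 37.8%. At an unadjusted p under 0.05, PRR37 and GI passed there, with log2 differences of 0.41 and 0.46, against 7.93% of all genes. The 5 comparisons of DJ and ku70 share libraries with each other.

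PRR95, PRR59, ELF3, PRR1 and OsPCL1 showed no call in DJ or ku70. The first of them, PRR95, at 28.9 to 46.9 FPKM in the 4 controls and 10.7 to 28.6 FPKM in the 4 irradiated libraries of these lines, had log2 differences of -1.12 in DJ (95% interval -2.62 to 0.38) and -0.83 in ku70 (-2.33 to 0.67). PRR59 was at 6.53 to 14.6 FPKM in controls and 10.9 to 19.2 FPKM at 40 Gy, and ELF3 at 7.77 to 14.9 FPKM and 7.09 to 20.5 FPKM. PRR1 was at 3.66 to 12.8 FPKM in controls and at 3.10 to 16.0 FPKM at 40 Gy, with replicates of DJ controls at 12.8 and 3.77 FPKM. OsPCL1 was listed at 0 in 1 of 2 DJ controls, 1 of 2 ku70 controls and both ku70 libraries at 40 Gy. It was at 3.18 and 2.30 FPKM in DJ at 40 Gy and at 9.57 FPKM in the other DJ control, so no direction can be read for it.

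Of the 17 clock-associated genes tested in ku70 at 40 Gy, 0 rose and 2 fell, which is near the 9.92% of all genes called (7.08% lower), with a median log2 difference of -0.91 against -0.29 over all genes. They were LNK1 (-0.95, adjusted p = 0.0494) and ELF4-LIKE 3 (-0.91, adjusted p = 0.0473), whose Arabidopsis relative ELF4 works in the evening complex. Of the 9 flowering genes, 0 rose and 2 fell, with a median of -1.03: OsCOL4, a CONSTANS-like repressor of flowering (-3.22, adjusted p = 0.0135), and RDD1 (-2.90, adjusted p = 0.0477). OsCOL4 was at 205 and 236 FPKM in ku70 controls and at 19.0 and 26.9 FPKM at 40 Gy. Of the 13 light-signalling genes, 0 rose and 4 fell, with a median of -1.22, led by PIL13, a phytochrome-interacting bHLH-type factor (-4.09, adjusted p = 0.0342), CRY1b (-1.93, adjusted p = 0.0249) and CRY1a (-1.91, adjusted p = 0.0455). In DJ at 40 Gy, 0 genes of the 3 lists were called, and their medians were -0.27, -0.37 and -0.84. The list members were also uncalled in the interaction of line and 40 Gy and between ku70 and DJ, with or without 40 Gy.

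The marker sums also differed between control and irradiated libraries, lower at 40 Gy for mesophyll and higher for dividing cells. The summed mesophyll markers were at 42734 and 46632 FPKM in ku70 controls and at 4709 and 5540 FPKM in ku70 at 40 Gy, and at 26913 and 37072 FPKM in DJ controls and 13112 and 10930 FPKM in DJ at 40 Gy. The 3 dividing-cell markers summed to 11.8 and 13.8 FPKM in ku70 controls and to 150 and 164 FPKM in ku70 at 40 Gy. In DJ the sums were 12.0 and 13.4 FPKM in controls and 18.6 and 29.3 FPKM at 40 Gy. Nearly all of each sum was PCNA, as CYCB2;2 and CDKB2 reached at most 0.505 and 1.32 FPKM in the second set. The rise is therefore that of PCNA alone. The part of the leaf markers in the clock gene values was not tested.

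At 70 Gy in the first set, no clock gene was called in either line or in the difference between them. In ATM, 0 of 9 were called by limma, against 0.525% of all genes, and 1 of 9 (PRR1) passed an unadjusted p under 0.05, against 12.2% of all genes. In atm-1, 0 of 9 and 0% of all genes were called, and 2 of 9 (PRR37 and PRR73) passed the unadjusted threshold, against 7.64% of all genes. In the difference between the responses, 0 of 9 were called, against 0.167% of all genes, and PRR1, PRR73 and GI passed the unadjusted threshold, against 8.41% of all genes. Their log2 differences between the responses, atm-1 minus ATM, were 0.65, 0.48 and 1.07, and without the pair of libraries that stood apart they were 0.38 (adjusted p = 0.857), 0.37 (adjusted p = 0.783) and 0.33 (adjusted p = 0.863). That of LHY went from -2.77 to -0.65 and that of OsPCL1 from 2.91 to 0.72. Limma-voom on recovered reads also called 0 of 9 in each of these.

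The morning gene illustrates the spread behind this. LHY was at 7.11, 2.78 and 8.90 FPKM in ATM controls and 5.94, 12.1 and 58.6 FPKM in ATM at 70 Gy. In atm-1 it was at 153, 9.52 and 12.2 FPKM in controls and 13.0, 7.01 and 9.62 FPKM at 70 Gy. Only the pair of libraries that stood apart exceeded 20 FPKM among these 12, in opposite arms of the 2 lines. The log2 difference was 1.38 (95% interval -0.65 to 3.42) in ATM and -1.39 (-3.42 to 0.65) in atm-1. Without both libraries it was 0.50 in ATM and -0.15 in atm-1, so that pair decides the size of both values.

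OsPCL1 was at 140, 320 and 144 FPKM in ATM controls and at 137, 168 and 5.94 FPKM in ATM at 70 Gy, and at 25.6, 127 and 103 FPKM in atm-1 controls and 147, 159 and 155 FPKM in atm-1 at 70 Gy. The log2 differences of -1.78 (95% interval -3.91 to 0.35) and 1.13 (-1.002 to 3.27) became -0.29 and 0.43 without the pair. GI was at 513, 464 and 220 FPKM in ATM and at 542, 611 and 569 FPKM in atm-1 at 70 Gy. Its log2 differences of -0.60 and 0.48 became -0.21 and 0.12 without the pair. PRR1 was at 70.9, 75.0 and 53.2 FPKM in ATM at 70 Gy, below its controls at 95.9, 87.2 and 80.9 FPKM (log2 difference -0.41, adjusted p = 0.400, and -0.26 without the pair).

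The PRR genes PRR37 and PRR73 were higher in every atm-1 library at 70 Gy than in any atm-1 control, without passing the test. PRR37 was at 31.8, 31.5 and 22.3 FPKM at 70 Gy and at 18.3, 14.4 and 16.7 FPKM in controls (log2 difference 0.75, SE 0.29, adjusted p = 0.599). PRR73 was at 38.9, 38.7 and 35.0 FPKM and at 24.1, 28.4 and 30.2 FPKM (0.44, SE 0.14, adjusted p = 0.555). Without the pair these differences were 0.82 (adjusted p = 0.208) and 0.35 (adjusted p = 0.215). In ATM the groups overlapped for both. The groups did not overlap for 4 of 9 clock genes in atm-1 (PRR37, PRR73, ELF3 and OsPCL1), against 12.9% of all genes, and for 2 of 9 in ATM (PRR1 and GI), against 21.1%. PRR95 was at 209, 277 and 251 FPKM in atm-1 at 70 Gy, above atm-1 control replicates 2 and 3 at 76.1 and 52.1 FPKM but below replicate 1 at 417 FPKM. Its log2 difference of 1.04 (adjusted p = 0.698) became 1.94 (adjusted p = 0.0728) without the pair. The summed dividing-cell markers were at 68.4 to 148 FPKM in ATM at 70 Gy against 8.62 to 17.3 FPKM in ATM controls. In atm-1 they were at 13.9 to 18.7 FPKM at 70 Gy against 13.3 to 21.4 FPKM in its controls. The rise in ATM was that of PCNA, as CYCB2;2 and CDKB2 reached at most 1.14 and 5.12 FPKM in the first set. The part of these markers in the clock gene values was not tested.

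Between atm-1 and ATM, 0 of 9 clock genes were called in controls, against 0% of all genes, and 0 of 9 at 70 Gy, against 0.33% of all genes. At an unadjusted p under 0.05, LHY passed in controls (log2 difference 2.04, which became 0.81 without the pair), against 5.41% of all genes. PRR1 passed at 70 Gy (0.52, 0.37 without the pair), against 5% of all genes. The groups did not overlap for 4 of 9 clock genes in controls (LHY, PRR37, PRR73 and OsPCL1), against 6.57% of all genes, and for 5 of 9 at 70 Gy (PRR1, PRR95, PRR59, GI and ELF3), against 15.6%. None of the listed clock-associated, flowering and light-signalling genes was called in the 5 comparisons of ATM and atm-1 with or without 70 Gy.

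A pair of contrasts had 1 library per arm and no replicate check. In atr, 70 Gy against control, 1 of 9 clock genes, OsPCL1, differed by a log2 difference of 1 or more (59.8 and 122.6 FPKM, -1.02), against 18.8% of all genes. LHY was at 47.3 and 52.9 FPKM, PRR1 at 39.1 and 43.2 FPKM, GI at 447 and 387 FPKM, ELF3 at 12.8 and 23.9 FPKM and PRR59 at 104 and 57.6 FPKM. The atr 70 Gy library also held the lowest mesophyll marker sum of the series, 1401 FPKM against 9629 FPKM in the atr control. At 40 Gy, TOP6A3-OE1 atm-2 against TOP6A3-OE1, 5 of 9 differed by that much, against 23.2% of all genes. PRR37 was at 155 and 54.7 FPKM (log2 difference 1.48), PRR95 at 73.4 and 26.8 FPKM (1.42), ELF3 at 32.8 and 12.9 FPKM (1.29), GI at 184 and 85.8 FPKM (1.09) and OsPCL1 at 0.932 and 3.68 FPKM (-1.27). LHY was at 252 and 157 FPKM, PRR73 at 34.1 and 27.0 FPKM, PRR1 at 7.38 and 6.94 FPKM and PRR59 at 26.7 and 34.3 FPKM. The mesophyll markers summed to 41911 and 12412 FPKM in these libraries, and their part in the differences was not tested.

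The order of the groups by mean level puts these comparisons on a common scale. The means of the atm-1 controls and of ATM 70 Gy each include 1 of the libraries that stood apart. Their medians were 12.2 and 12.1 FPKM for LHY, and 103 and 137 FPKM for OsPCL1. For LHY in the first set it ran from ATM cold (314) and atm-1 cold (228 FPKM) through top6a3 (mean 113), atm-1 controls (58.3), atr control (52.9), TOP6A3 (50.2), atr 70 Gy (47.3), ATM 70 Gy (25.5) and atm-1 70 Gy (9.86) to ATM controls (6.27 FPKM). Below top6a3, the only neighbours that did not overlap were single libraries, the 3 values from 47.3 to 52.9 FPKM. For OsPCL1 the order ran from ATM controls (mean 201) and TOP6A3 (181 FPKM) through atm-1 70 Gy (154), atr control (123), ATM 70 Gy (104), atm-1 controls (84.9) and atr 70 Gy (59.8) to atm-1 cold (12.4), ATM cold (4.94) and top6a3 (1.38 FPKM). The last 3 groups did not overlap with their neighbours. For LHY in the second set the order was ku70 controls (767), DJ controls (544), DJ 40 Gy (309), TOP6A3-OE1 atm-2 40 Gy (252), ku70 40 Gy (197) and TOP6A3-OE1 40 Gy (157 FPKM), and no neighbours overlapped with 1 or 2 libraries each.

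The genes whose order over the 20 libraries of the first set was most like that of LHY, among genes with a mean of 5 FPKM or more, were OsSWEET2b (Spearman's rho 0.92), Os01g0623200 (0.92), OsFRO7 (0.90), Os02g0109100 (0.90) and Os07g0659400 (0.90). Over the 10 libraries of the second set, OsSWEET2b, OsFRO7 and Os07g0659400 kept a rho of 0.78, 0.81 and 0.85 with LHY, whereas Os01g0623200 and Os02g0109100 were at -0.61 and -0.37. For GI the closest were Os01g0888500 (0.94), OsTHIC (0.92), OsDjC28 (0.92), Os04g0602600 (0.91) and Os08g0139100 (0.91). In the second set their rho with GI was 0.48, 0.18, -0.26, -0.02 and 0.03. These values are descriptions over libraries that share groups, depth and scaling, and they carry no test.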

How the data were processed

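Leaf RNA was sequenced in 30 libraries prepared with a directional kit, per the labels' protocols. The authors deposited FPKM values per gene in 5 tables, with no aligner, counter or genome build given in the sources used here. The tables formed a first set (20 libraries) and a second set (10). These were tested apart because they may have been normalised apart, and their annotations also differ. No column belonged to an unlabelled sample. FPKM values were whole multiples of what 1 read is worth (100% of values within 0.01), which gave recovered reads of 10364400 to 16477100 per library, and these limit the precision. Where a log2 fold change or adjusted p-value is from the authors' deposited table, the text says so.

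From the deposited FPKM values, log2(FPKM + 1) was computed and tested with limma 3.58.1 (trend) in R 4.3.3, with a mean for each group, 1 spread shared over the set, and a filter that kept genes reaching 1 FPKM in 2 or more libraries (24582 and 23063 genes). Tests were two-sided, with Benjamini-Hochberg adjustment over all genes kept and a call under 0.05. Differences are on the log2(FPKM + 1) scale, which understates changes of low genes. A 95% interval uses limma's moderated standard error. Contrasts of 1 library against 1 library had no test, and a log2 difference of 1 or more was counted. Tables and figures used Python 3.11.15, pandas 2.3.3, numpy 2.4.6 and matplotlib 3.10.9. The fit was tested on simulated data.

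Alternatives were a pseudocount of 0.1, no filter, median-ratio scaling, only the groups compared, limma-voom on recovered reads, the replicate number as a block, leaving out each library, and leaving out the 2 libraries that stood apart. For the single-library contrasts, the pseudocount of 0.1 and the median-ratio scaling were chosen after seeing the data, as was cold in each line alone. All 9 clock genes are named. Of each pathway list, up to 3 called members with the largest change are named per comparison, and of the genes most like LHY and GI the closest 5. The members and lists were chosen with earlier results of these data known. Nothing says that replicates came from separate plants, so p-values measure only the spread between libraries, which may be technical.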

Additional observations from a re-analysis of the deposited data

Results flagged for a closer look

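The response of PRR37 to 40 Gy differed between the lines by the test of the difference itself: the ku70 response was lower than the DJ response by a log2 difference of -1.60 (limma, adjusted p = 0.0477). PRR37 was lower at 40 Gy in 2 of 2 ku70 libraries and in 2 of 2 DJ libraries than in any control of the line. With 2 libraries a group, the call was lost when any of the 8 libraries was left out.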

How the results depend on the processing

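The count of called clock genes in cold was 7, but 6 with only the groups compared or by limma-voom, and 6 in ATM alone and 4 in atm-1 alone. It was 0 under each alternative in the 5 comparisons of ATM and atm-1 with or without 70 Gy and in ku70 against DJ controls. For top6a3 it was 2, but 4 with only the groups compared (LHY and GI added) or without the 2 libraries that stood apart (GI and PRR73 added), 3 with no filter or median-ratio scaling, 2 to 3 with 1 library left out, and 1 by limma-voom. For DJ at 40 Gy it was 0, but 1 with a pseudocount of 0.1 or no filter. For ku70 at 40 Gy it was 4 and ranged from 2 to 3 with 1 library left out. For the interaction of line and 40 Gy it was 1, but 2 with a pseudocount of 0.1, 3 by limma-voom, 0 with only the groups compared, and 0 with any library left out. For ku70 against DJ at 40 Gy it was 2, but 3 by limma-voom, 0 with only the groups compared and 0 with any library left out. Of 1328 recomputed values of single clock genes, 1279 stayed on their side of the threshold, 36 lost a call, 13 gained one and 0 called values changed sign. The 1279 include values not called whose sign changed, such as that of PRR59 in cold without the 2 libraries that stood apart.

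In the first set, correlations of deviations ran from -0.48 to 0.26 for same-numbered replicates and from -0.39 to 0.49 for differently numbered ones. Deviations within a group sum to 0 over very few libraries, so this check cannot decide whether the numbers pair the samples. The pair of libraries compared for atr and that for TOP6A3-OE1 again had 1 and 5 genes past the fold with a pseudocount of 0.1 or median-ratio scaling, alternatives chosen, like the split of cold by line, after the data were seen. With the replicate block, the count was 0 for the interaction and 0 for ku70 against DJ at 40 Gy, and GI in ku70 at 40 Gy had an adjusted p of 0.0830.

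Over all genes the number called also moved: in cold from 6991 to between 3464 and 11660, in top6a3 from 3166 to between 1853 and 7965, and in ku70 at 40 Gy from 2287 to between 443 and 3474. With 1 to 3 libraries a group and no hour of harvest in the labels, neither small changes nor the hour can be resolved. The causes of these shifts were not tested.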
